A study of Homo sapiens with 6 samples.

Results

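Histone lysine methyltransferases and demethylases are the enzymes that add methyl groups to lysines of histone tails and take them off. They were followed here in the human medulloblastoma line D283 after its OTX2 gene had been targeted. The set was given by symbol and comprised 49 genes, all 49 of which were among the 50883 symbols of the count table and among the 18420 genes tested. By role, 31 were methyltransferases or subunits of Polycomb repressive complex 2 (PRC2) and 18 were demethylases. Total RNA was sequenced from 3 libraries of the OTX2 knockout genotype and 3 of the control genotype. Knockout cultures had been infected with a GFP-marked lentivirus carrying a guide RNA against OTX2, a homeobox transcription factor gene of the developing brain and retina. Control cultures had received the same kind of virus with a guide that has no target, so every culture carried a virus, GFP and a guide. Cells were collected at 7 days. How many guides were used, which nuclease was present and what share of cells was edited are not stated. The replicates are separate infections of a single line, and the p-values refer to the spread between those infections.

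Methylation of histone H3 at lysine 4 (H3K4) marks promoters and enhancers, and methylation at H3K36 and H3K79 marks the bodies of transcribed genes. H3K27 methylation by PRC2 and H3K9 methylation by the SUV39H, SETDB and EHMT enzymes go with silent chromatin. The marks are erased by the flavin-dependent enzymes KDM1A and KDM1B and by a larger family with a JmjC domain, which needs iron and oxoglutarate. KDM6A, KMT2C and KMT2D are among the genes recurrently mutated in medulloblastoma.

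The changes in the family were small. Of the 49 genes, 16 passed the test, 6 higher and 10 lower in knockout (edgeR quasi-likelihood, Benjamini-Hochberg adjusted p under 0.05 across all tested genes). This is 32.7% of the members, 12.2% higher and 20.4% lower, against 39.7% of all tested genes, 21.2% higher and 18.5% lower. Among the 11305 tested genes whose mean count reached that of the lowest member (260.7), 46.4% passed, 20.2% higher and 26.2% lower. No member (0) passed with a change above 2-fold, against 6.82% of all tested genes and 2.26% of those at or above the lowest member count. SETD7 had the lowest log2 fold change among the members, -0.50, and JARID2 the highest, 0.39. The median was -0.02 over the members and 0.01 over all tested genes.

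Writers and erasers were counted apart. Of the 31 methyltransferases and PRC2 subunits, 2 rose (6.45%) and 10 fell (32.3%), and their median log2 fold change was -0.09. Of the 18 demethylases, 4 rose (22.2%) and 0 fell, and their median was 0.10. The share of demethylases that rose is near that of all tested genes (21.2%) and of those at or above the lowest member count (20.2%), where 18.5% and 26.2% fell. The difference between these classes was not tested. By edgeR at an unadjusted p under 0.05 the demethylases gave 5 higher and 0 lower, and by DESeq2 at the adjusted threshold 3 higher and 0 lower. The counts moved with the processing. Scaled by library totals alone, 6 methyltransferases or PRC2 subunits were higher and 6 lower, and 9 demethylases were higher and 0 lower. After a correction for GC content and transcript length the counts were 3 higher and 16 lower in the first class, and 2 higher and 4 lower among demethylases. Beside the 10 that fell without it, KMT2A, KMT2B, KMT2D, EHMT1, NSD1, SETDB1, KDM2B, KDM3B, KDM5C and PHF2 passed, lower in knockout, after that correction. Leaving out control replicate 1 raised the number of higher members to 12, and leaving out knockout replicate 2 or control replicate 2 gave 3 in each case.

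**Figure D1:**
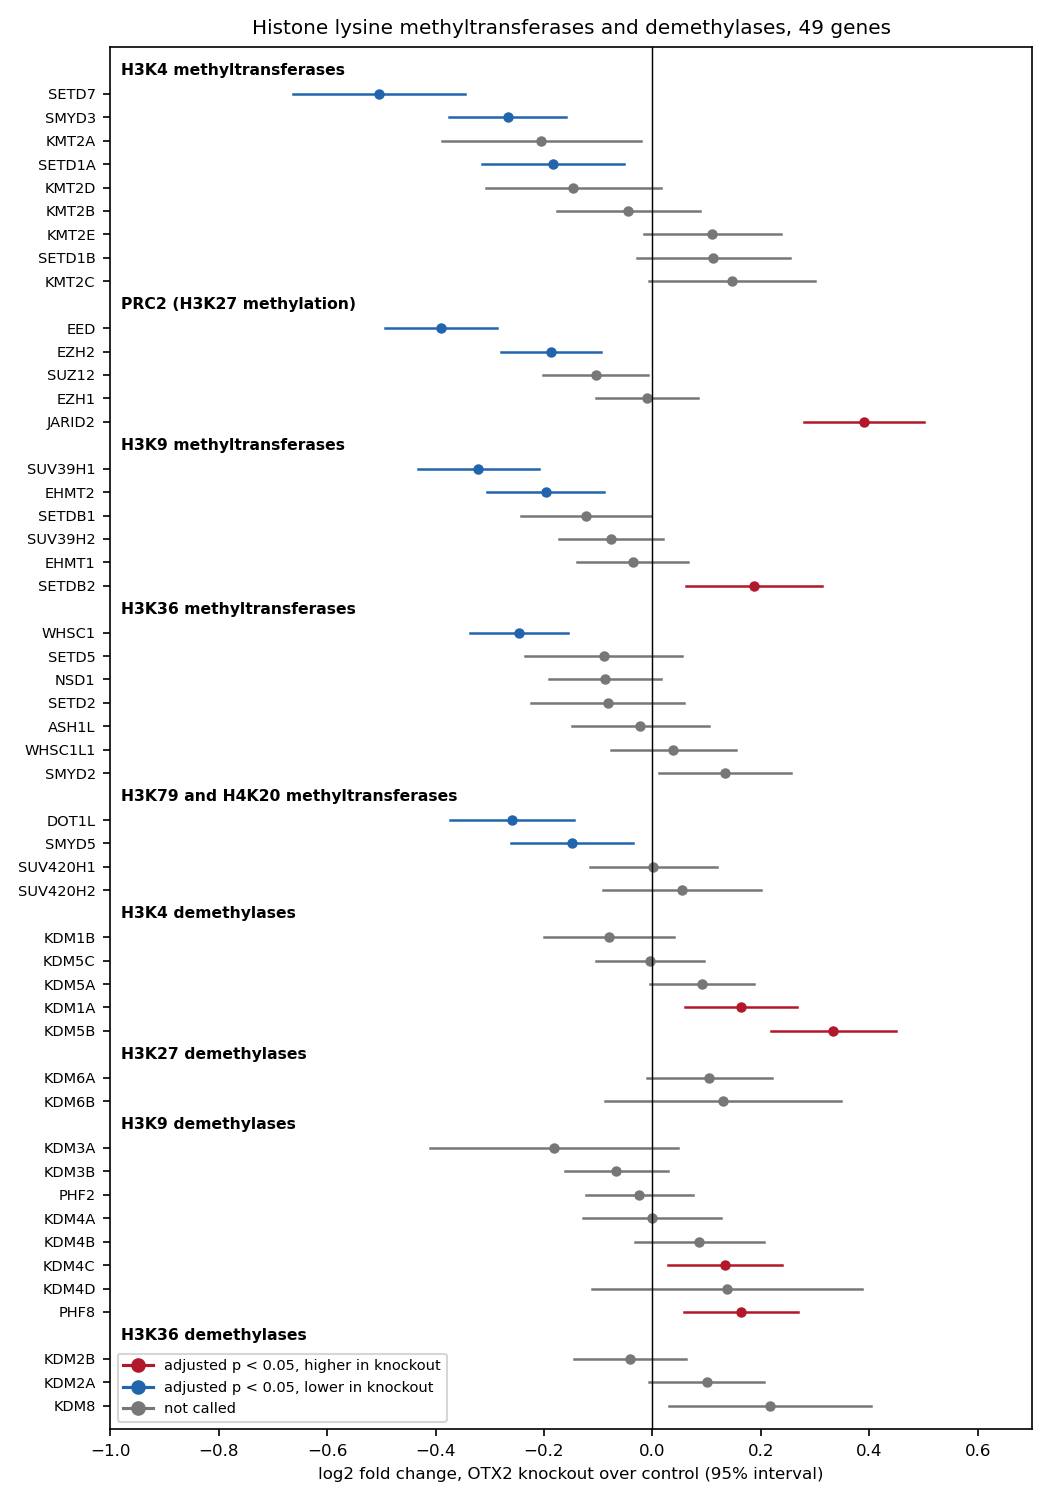
Log2 fold change of OTX2 knockout over control for each of the 49 genes, with its 95% interval, grouped by the mark the enzyme acts on. Red genes (6) were higher and blue genes (10) lower in knockout, and grey genes did not pass the test; the estimates run from -0.50 for SETD7 to 0.39 for JARID2.

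For 36 of the 49 members (73.5%) the 95% interval of the log2 fold change lay inside a 1.25-fold change either way. The share was 39.7% of all tested genes and 62.8% of those at or above the lowest member count. SETD7, EED, JARID2 and KDM5B were the 4 members (8.16%) that passed with a change above 1.25-fold, against 22.3% of all tested genes and 18.3% of those at or above the lowest member count.

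**Figure D2:**
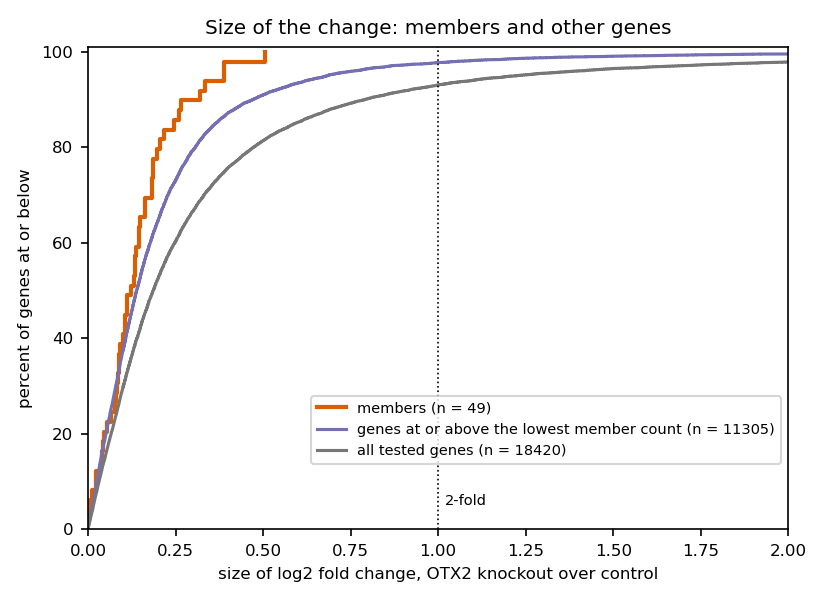
Cumulative percent of genes by the size of their log2 fold change, for the members, for tested genes at or above the lowest member count, and for all tested genes. The members' curve ends at 0.50, left of the dotted line at a 2-fold change.

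OTX2 RNA was slightly lower in the knockout group. It stood at 765, 824 and 887 CPM (counts scaled to library size) in knockout replicates 1 to 3, against 1002, 979 and 909 CPM in control replicates 1 to 3. The groups did not overlap, with a log2 fold change of -0.22 (SE 0.06, edgeR adjusted p = 0.00646). Because edited genes can still be transcribed, this level says little about whether the labels are right.

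Libraries held 54540645 to 62166870 counts. All 7 markers of Group 3 medulloblastoma and photoreceptors were expressed and lower in knockout, where they summed to 3120 to 3686 CPM, against 4453 to 4767 CPM in control. Of 7 neuronal markers 5 rose and 1 fell, with TUBB3 listed at 0 in each library, and they summed to 200.2 to 223 CPM in knockout and 175 to 199.9 CPM in control. The 6 mesenchymal markers (3 rose) summed to 23.7 to 24.9 CPM in knockout and 15.0 to 16.1 CPM in control, and the 5 endothelial markers (2 rose) to 5.45 to 6.46 CPM in knockout and 2.53 to 3.88 CPM in control. The 7 immune markers (1 rose, 1 fell) summed to 0.710 to 0.769 CPM in knockout and 1.11 to 1.14 CPM in control, with CD3E at 0. The 6 astroglial markers (1 rose, 1 fell) summed to 312 to 358 CPM in knockout and 221 to 258 CPM in control, with GFAP at or near 0. The oligodendrocyte markers MBP, MOG and MAG were at or near 0 in both groups. The part of these shifts in the results was not tested. In bulk RNA, fewer cells of a type and less RNA per cell cannot be told apart.

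Control replicate 1 differed from the remaining controls. Mitochondrially encoded genes took 0.764% of its counts, against 0.449% and 0.440% in control replicates 2 and 3, and 0.531% to 0.601% in the knockout libraries. Of the 49 members 30 had their highest control value there, while this held for 34.3% of tested genes at or above the lowest member count. Member transcripts are long, with a median of 5840 bases against 3600 bases for those genes. Across the 49 members, which share these libraries, the log2 ratio of control replicate 1 to the other controls had a Spearman rho of 0.687 with transcript length. The log2 fold change of knockout over control had a rho of 0.0607 with length.

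Of the 9 enzymes listed for H3K4 methylation, 3 fell (33.3%) and 0 rose, with 0 higher by edgeR at an unadjusted p under 0.05. Over all tested genes 18.5% fell and 21.2% rose, and 26.2% and 20.2% of those at or above the lowest member count. SETD7, which adds a single methyl group to H3K4 and also acts on non-histone proteins such as p53, was at 428, 471 and 536 CPM in knockout and 726, 689.9 and 619 CPM in control. Every knockout library lay below every control library. SETD7 was highest in the knockout replicate with the most OTX2 RNA and lowest in the control replicate with the least. CBX5 and KDM3A were highest and lowest in the same replicates, and a link with the OTX2 level was not tested. The log2 fold change of SETD7 was -0.50 (SE 0.07, edgeR adjusted p = 7.06e-05).

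SMYD3, a SET and MYND domain enzyme that also methylates cytoplasmic kinases, was at 29.2, 30.5 and 31.9 CPM in knockout and 36.4, 36.3 and 37.5 CPM in control. It fell by 0.27 on the log2 scale (edgeR adjusted p = 0.000639), and the groups did not overlap. SETD1A, a catalytic subunit of the COMPASS complexes that trimethylate H3K4 at promoters, was at 30.4, 27.8 and 28 CPM in knockout and 35.1, 32.6 and 30.1 CPM in control. Its groups overlapped, since knockout replicate 1 was above control replicate 3. It fell by 0.18 on the log2 scale (edgeR adjusted p = 0.0267), but did not pass without knockout replicate 2 (0.101), knockout replicate 3 (0.0571), control replicate 1 (0.0815) or control replicate 2 (0.0677), nor with library totals alone (0.23).

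The large KMT2 enzymes did not pass. KMT2A, the mixed-lineage leukaemia gene, was at 74.8, 70.8 and 81.8 CPM in knockout and 103, 76.6 and 82.7 CPM in control. Control replicate 1 stood well above the other 5 libraries. Its log2 fold change was -0.21 (edgeR adjusted p = 0.0725), and it passed when knockout replicate 3, control replicate 2 or control replicate 3 was left out. KMT2C and KMT2D, which monomethylate H3K4 at enhancers, had log2 fold changes of 0.15 and -0.15. KMT2B was at -0.04 on the same scale, SETD1B at 0.11, and KMT2E, a reader of trimethylated H3K4 with little known activity of its own, at 0.11. KMT2C, KMT2E and SETD1B passed without control replicate 1, and KMT2D without knockout replicate 1. After the GC and length correction KMT2A, KMT2B and KMT2D passed, lower in knockout. Exons of KMT2E overlap SRPK2, which makes its count uncertain.

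PRC2 genes that passed did not share a direction. EZH2 and EZH1 are alternative catalytic subunits, EED reads the mark, SUZ12 holds the core together, and JARID2 is an accessory subunit that helps to place the complex on its targets. EED and EZH2 fell, JARID2 rose, and SUZ12 and EZH1 did not pass. The promoters of these PRC2 genes that passed are shown here beside those of SETD7 and KDM5B, which changed by more than 1.25-fold. Each is the 250 bases before the RefSeq gene start on GRCh38.p14, 5′ to 3′ on the strand of the gene. Capitals mark CCAAT, the letters bound by the factor NF-Y, on either strand.
EZH2 (chr7:148884292-148884541, minus strand): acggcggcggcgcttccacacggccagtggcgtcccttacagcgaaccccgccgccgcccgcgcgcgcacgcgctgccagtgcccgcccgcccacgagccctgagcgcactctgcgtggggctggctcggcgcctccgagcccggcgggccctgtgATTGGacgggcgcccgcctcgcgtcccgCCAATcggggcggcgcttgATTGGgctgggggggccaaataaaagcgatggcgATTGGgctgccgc
EED (chr11:86244503-86244752, plus strand): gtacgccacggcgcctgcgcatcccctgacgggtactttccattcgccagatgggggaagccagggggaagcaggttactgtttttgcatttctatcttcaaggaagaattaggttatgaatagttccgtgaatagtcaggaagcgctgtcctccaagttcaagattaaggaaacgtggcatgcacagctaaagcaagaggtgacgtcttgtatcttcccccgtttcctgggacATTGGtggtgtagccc
JARID2 (chr6:15245819-15246068, plus strand): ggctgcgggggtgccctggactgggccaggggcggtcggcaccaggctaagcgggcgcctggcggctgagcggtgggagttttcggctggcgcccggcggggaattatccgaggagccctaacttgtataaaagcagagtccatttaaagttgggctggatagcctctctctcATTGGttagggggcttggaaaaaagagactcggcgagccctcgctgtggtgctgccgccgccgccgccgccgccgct
SETD7 (chr4:139556220-139556469, minus strand): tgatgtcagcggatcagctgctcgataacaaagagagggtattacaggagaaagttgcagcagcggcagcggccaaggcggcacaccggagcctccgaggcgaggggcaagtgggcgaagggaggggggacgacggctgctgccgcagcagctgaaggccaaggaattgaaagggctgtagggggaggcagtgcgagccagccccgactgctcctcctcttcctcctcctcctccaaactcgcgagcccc
KDM5B (chr1:202808422-202808671, minus strand): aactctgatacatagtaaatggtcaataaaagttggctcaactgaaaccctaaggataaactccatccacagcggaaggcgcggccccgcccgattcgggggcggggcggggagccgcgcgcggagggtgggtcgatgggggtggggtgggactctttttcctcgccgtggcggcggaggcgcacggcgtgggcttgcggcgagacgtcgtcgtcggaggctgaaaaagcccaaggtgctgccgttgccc

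Promoters were matched for 46 of the 49 members, all but SETD1B, WHSC1L1 and DOT1L. CCAAT or its reverse ATTGG stood in 15 of them (32.6%), against 33% of 27305 promoters of the same length. It was in 4 of the 5 PRC2 promoters. EZH2, which fell, and KDM4B, which did not pass, each held 4 copies, a number reached by 0.93% of all promoters. EED and EZH2, which fell, and JARID2, which rose, all held CCAAT or its reverse, and SETD7 and KDM5B did not. TAATCC, the core letters bound by OTX2 and related homeodomains, stood on either strand in 1 member promoter, that of KDM8 (2.17%, against 5.67% of all promoters). CACGTG, the E-box bound by MYC with MAX, stood in 7 (15.2%, against 6.49%), those of EHMT2, KDM4B, KDM4C, KDM6A, KMT2D, NSD1 and SETDB1. Of these 7 genes EHMT2 fell, KDM4C rose and the rest did not pass. The E2F letters TTTCCCGC or TTTGGCGC, on either strand, stood in 3 (6.52%, against 1.96%), those of KDM1B, SUZ12 and WHSC1. The median GC content was 65.6% in member promoters and 58% in all.

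EED was at 36.2, 37.8 and 36.4 CPM in knockout and 49.9, 46.6 and 48.1 CPM in control. All knockout values lay below all control values, and EED fell by 0.39 on the log2 scale (SE 0.05, edgeR adjusted p = 1.34e-05). JARID2 was at 54.5, 57.7 and 56.9 CPM in knockout and 44.1, 44.7 and 40.3 CPM in control. It rose by 0.39 (SE 0.05, edgeR adjusted p = 2.65e-05), again without overlap. EZH2 was at 67.6, 69.4 and 67.1 CPM in knockout and 77.8, 77.2 and 77.2 CPM in control. The groups did not overlap and EZH2 fell by 0.19 on the log2 scale (edgeR adjusted p = 0.00294), though it did not pass with library totals alone (0.0538).

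SUZ12 was at 132, 136 and 137 CPM in knockout and 149, 146 and 140.2 CPM in control. The knockout values were below the control values, with a log2 fold change of -0.10 and an edgeR adjusted p of 0.0799. A transcribed pseudogene, SUZ12P, had 37.9% as many counts, so reads may be split between them. EZH1, the paralogue that prevails in cells that do not divide, was at 102, 100.4 and 105 CPM in knockout and 102, 105 and 103 CPM in control. Its groups overlapped, and the 95% interval of its log2 fold change ran from -0.10 to 0.08.

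Among 6 H3K9 methyltransferases 2 fell (33.3%) and 1 rose (16.7%). Among all tested genes 18.5% fell and 21.2% rose, and 26.2% and 20.2% of those at or above the lowest member count. SUV39H1, which trimethylates H3K9 in constitutive heterochromatin, was at 20.5, 21.7 and 20.4 CPM in knockout and 25.7, 26.6 and 25.9 CPM in control. The groups were well apart, and SUV39H1 fell by 0.32 on the log2 scale (SE 0.05, edgeR adjusted p = 0.000173). Its paralogue SUV39H2 was at 48.2, 49.4 and 47.9 CPM in knockout and 50.6, 51.9 and 50.9 CPM in control. Knockout was lower in every library there too, but the log2 fold change was -0.08 (edgeR adjusted p = 0.199), and exon overlap with DCLRE1C makes the count uncertain.

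EHMT2 (G9a), which dimethylates H3K9 in euchromatin, was at 138, 143 and 136 CPM in knockout and 149, 167 and 161 CPM in control. It fell by 0.20 on the log2 scale (edgeR adjusted p = 0.00613), without overlap, and did not pass with library totals alone (0.0576). EHMT1, which forms a heterodimer with it, had a log2 fold change of -0.04. SETDB2, a relative of SETDB1, was at 22.3, 21.7 and 24.4 CPM in knockout and 20.6, 19.7 and 19.8 CPM in control. It rose by 0.19 (edgeR adjusted p = 0.0193), and did not pass without knockout replicate 3 (0.11), control replicate 2 (0.0795) or control replicate 3 (0.0568). SETDB1, which is recruited through the corepressor TRIM28, had a log2 fold change of -0.12 (edgeR adjusted p = 0.097) and passed without knockout replicate 3. Its exons overlap those of the more abundant CERS2.

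Of 7 genes listed for H3K36 methylation, WHSC1 fell (14.3%) and 0 rose. The share that fell was 18.5% over all tested genes and 26.2% over those at or above the lowest member count. At an unadjusted p under 0.05 edgeR gave 1 of the 7 higher (SMYD2). WHSC1 (NSD2), which dimethylates H3K36, was at 272, 276 and 275 CPM in knockout and 326, 327 and 323 CPM in control. The spread within each group was small against the distance between them, and WHSC1 fell by 0.25 on the log2 scale (SE 0.04, edgeR adjusted p = 0.000292). The related enzymes NSD1 and WHSC1L1 (NSD3) had log2 fold changes of -0.09 and 0.04, and exons of WHSC1L1 overlap DDHD2. SETD2, the H3K36 trimethylase that travels with RNA polymerase II, was at -0.08 on this scale, ASH1L at -0.02 and SETD5, whose own activity is debated, at -0.09. SMYD2, which also methylates p53, was at 54.4, 54.2 and 54.5 CPM in knockout and 44.8, 51.3 and 52.5 CPM in control. Knockout was higher in every library, the edgeR adjusted p was 0.0752, and SMYD2 passed without control replicate 3 and with library totals alone.

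DOT1L, the H3K79 methyltransferase, was at 90.5, 83.0 and 82.7 CPM in knockout and 107, 102 and 96.8 CPM in control. It fell by 0.26 on the log2 scale (edgeR adjusted p = 0.00123), without overlap, but exon overlap with PLEKHJ1 makes the count uncertain. SMYD5, reported to trimethylate H4K20, was at 26.3, 25.6 and 26.3 CPM in knockout and 27.3, 29.3 and 30.01 CPM in control. It fell by 0.15 (edgeR adjusted p = 0.0357), and did not pass without knockout replicate 1 (0.0718), knockout replicate 2 (0.119), control replicate 2 (0.112) or control replicate 3 (0.127), nor with library totals alone (0.314). SUV420H1 and SUV420H2 (KMT5B and KMT5C), the main enzymes of H4K20 dimethylation and trimethylation, had log2 fold changes of 0.00 and 0.05.

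Of 5 H3K4 demethylases 2 rose (40%) and 0 fell, with 0 lower by edgeR at an unadjusted p under 0.05. Over all tested genes 21.2% rose, and 20.2% of those at or above the lowest member count. KDM5B (JARID1B), which acts on trimethylated and dimethylated H3K4, was at 219.7, 226 and 245 CPM in knockout and 192, 183 and 174 CPM in control. The groups did not overlap, and KDM5B rose by 0.33 on the log2 scale (SE 0.05, edgeR adjusted p = 0.00016). KDM1A (LSD1), the demethylase of the CoREST corepressor, was at 366, 378 and 366 CPM in knockout and 312, 336 and 343 CPM in control. It rose by 0.16 (edgeR adjusted p = 0.014), without overlap, and did not pass without knockout replicate 2 (0.0966). KDM5A had a log2 fold change of 0.09, KDM5C of 0.00 and KDM1B of -0.08. Exons of KDM5A overlap CCDC77.

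Neither H3K27 demethylase passed. KDM6A (UTX) was at 39.2, 40.4 and 40.6 CPM in knockout and 40.1, 35.8 and 35.8 CPM in control, with control replicate 1 inside the knockout range. Its log2 fold change was 0.11 (edgeR adjusted p = 0.141). KDM6B (JMJD3), which is known for rapid induction by stimuli, was at 10.9, 9.04 and 10.2 CPM in knockout and 10.7, 8.93 and 7.90 CPM in control, and the 95% interval of its log2 fold change ran from -0.09 to 0.35. Both genes passed, higher in knockout, without control replicate 1.

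Of 8 H3K9 demethylases 2 rose (25%) and 0 fell, with 0 lower by edgeR at an unadjusted p under 0.05. The share that rose is near that of all tested genes (21.2%) and of those at or above the lowest member count (20.2%). PHF8, an X-linked PHD finger demethylase, was at 34.6, 34.5 and 34.9 CPM in knockout and 32.1, 29.8 and 30.9 CPM in control. It rose by 0.16 on the log2 scale (edgeR adjusted p = 0.0153), and did not pass without knockout replicate 2 (0.0616) or control replicate 2 (0.0969), nor after the GC and length correction (0.127). KDM4C, which acts on trimethylated H3K9 and H3K36, was at 38.2, 38.9 and 41.4 CPM in knockout and 36.6, 35.5 and 35.98 CPM in control. It rose by 0.13 (edgeR adjusted p = 0.0423), and did not pass without knockout replicate 2 (0.111), knockout replicate 3 (0.187), control replicate 2 (0.149) or control replicate 3 (0.1). By DESeq2 its adjusted p was 0.0943. Neither PHF8 nor KDM4C overlapped between the groups.

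The other 6 H3K9 demethylases did not pass. KDM3A, which acts on dimethylated H3K9, was at 79.8, 85.2 and 108 CPM in knockout and 122, 98.3 and 89.1 CPM in control. Both groups were widely spread, and KDM3A (log2 fold change -0.18) passed, lower in knockout, without knockout replicate 3 or control replicate 3. KDM3B had a log2 fold change of -0.07, KDM4A of 0.00, KDM4B of 0.09, KDM4D of 0.14 and PHF2 of -0.02. Exons of KDM4A overlap KDM4A-AS1, and KDM4D closely resembles its neighbour KDM4E, so both counts are uncertain. Of the 3 H3K36 demethylases, 0 passed, with 1 at an unadjusted p under 0.05 by edgeR (KDM8) and 0 at the adjusted threshold by DESeq2. KDM8 was at 8.997, 8.29 and 8.61 CPM in knockout and 7.17, 6.72 and 8.42 CPM in control, a log2 fold change of 0.22 (edgeR adjusted p = 0.0608), and passed without control replicate 3. KDM2A and KDM2B, which bind unmethylated CpG islands, were at 0.10 and -0.04 on this scale. KDM2A passed without control replicate 1, and exons of KDM2B overlap RNF34.

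**Figure D3:**
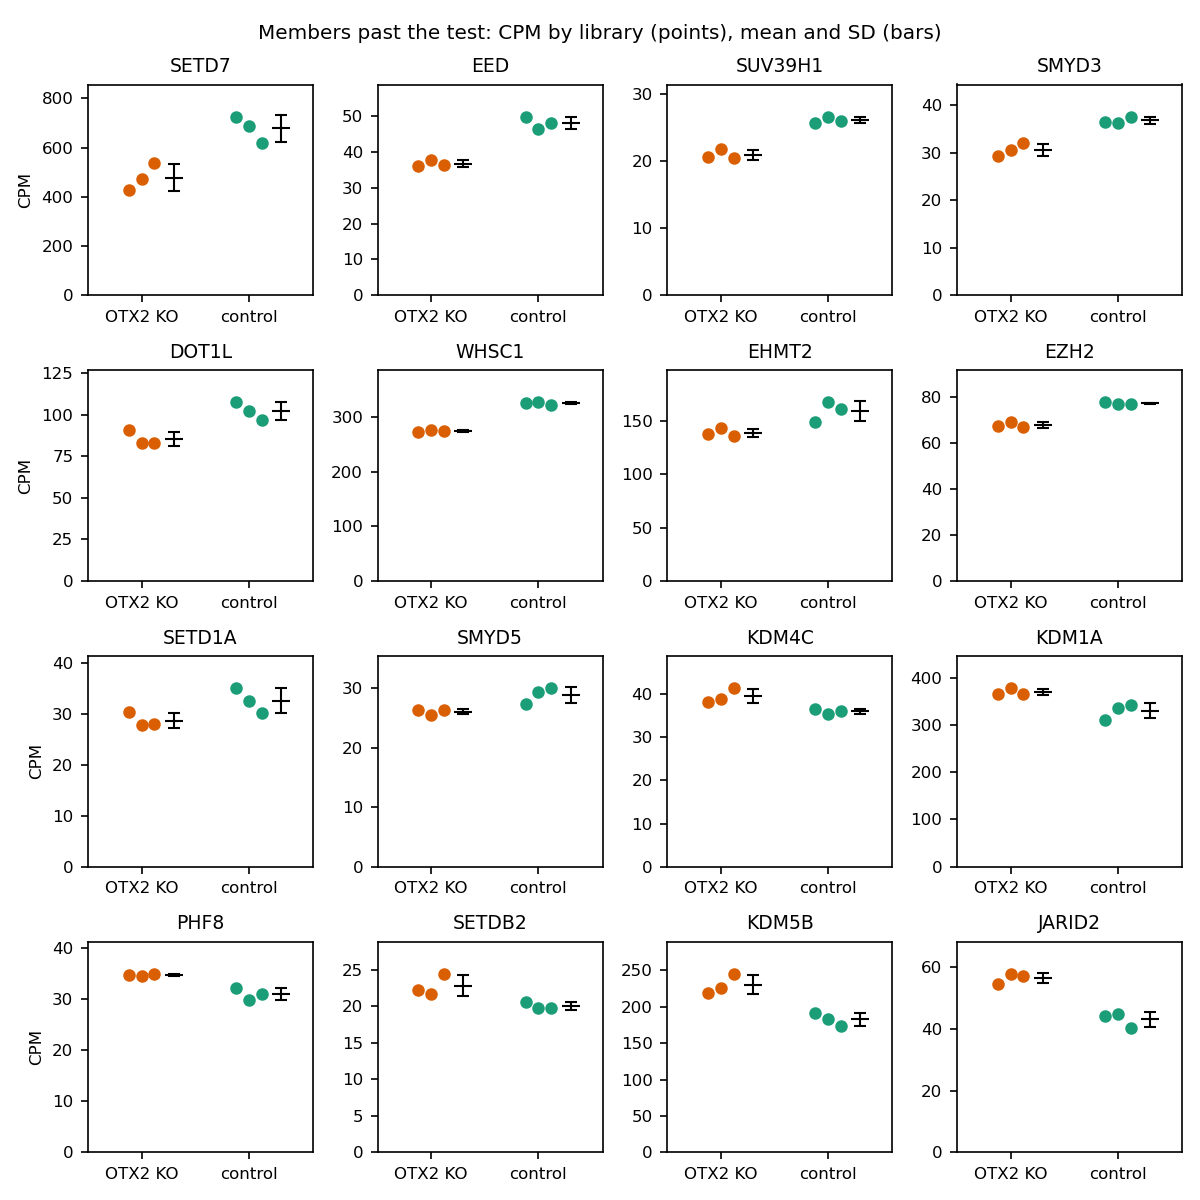
CPM of the 16 members that passed the test, by library (points, OTX2 knockout left, control right), with the mean and SD of 3 libraries as bars. Of the 16, SETD1A is the gene whose groups overlap; SETD7 lies between 428 and 536 in knockout and between 619 and 726 in control.

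The groups did not overlap for 21 members (42.9%), 9 with knockout above (18.4%) and 12 with knockout below (24.5%). The shares were 49.2%, 26.2% and 23.0% over all tested genes, and 55.4%, 24.4% and 31.0% over those at or above the lowest member count. Of the 33 members that did not pass, 6 did not overlap, SUZ12, SUV39H2, SMYD2, KDM5A, KDM2A and KDM3B. Of the 16 calls, 8 were kept in each alternative run except the test against a 1.5-fold change, which 0 members passed. They were SETD7, EED, SUV39H1, SMYD3, DOT1L and WHSC1, which fell, and JARID2 and KDM5B, which rose.

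Levels were compared between genes as CPM per kilobase of transcript. KDM1A stood first, at 121 in knockout and 108 in control, followed by SETD7, at 64.9 in knockout and 92.1 in control. EHMT2 came next by its control level, with 33.6 in knockout and 38.6 in control, then WHSC1 and SETDB1. KDM4D, at 1.54 in knockout and 1.40 in control, and KDM6B, at 1.496 in knockout and 1.37 in control, were the least abundant.

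Ratios of related genes within a library do not depend on the scaling between libraries, and 10 pairs were taken. In 7 of them every knockout library had a higher ratio than every control library. No test is given: which gene stands on top was a matter of choice, and values of single genes did not overlap for 49.2% of all tested genes. The ratios are of counts not scaled to transcript length, so their size does not show which gene is more abundant. The ratio of EZH1 to EZH2 was 1.52, 1.45 and 1.56 in knockout and 1.31, 1.36 and 1.34 in control. Per kilobase of transcript it averaged 0.861 in knockout and 0.762 in control, with EZH2 the more abundant. SUV39H2 to SUV39H1 was 2.35, 2.28 and 2.35 in knockout and 1.97, 1.95 and 1.96 in control. In both pairs the gene below the line had passed the test and the gene above it had not.

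SETD1B to SETD1A was 1.06, 1.08 and 0.998 in knockout and 0.859, 0.835 and 0.857 in control, so the pair separated although SETD1A alone overlapped. Per kilobase that ratio averaged 0.823 in knockout and 0.670 in control. KMT2C to KMT2D was 0.759, 0.821 and 0.924 in knockout and 0.694, 0.675 and 0.662 in control. Neither of these KMT2 genes passed alone. WHSC1L1 to WHSC1 averaged 0.462 ± 0.0147 in knockout and 0.379 ± 0.0250 in control (SD, n = 3 each). KDM5B to KDM5A averaged 1.25 ± 0.0437 in knockout and 1.05 ± 0.0300 in control, and EHMT1 to EHMT2 0.695 ± 0.0367 in knockout and 0.622 ± 0.0251 in control (SD, n = 3 each). The pairs KDM6B to KDM6A, SUV420H2 to SUV420H1 and KDM1B to KDM1A overlapped.

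**Figure D4:**
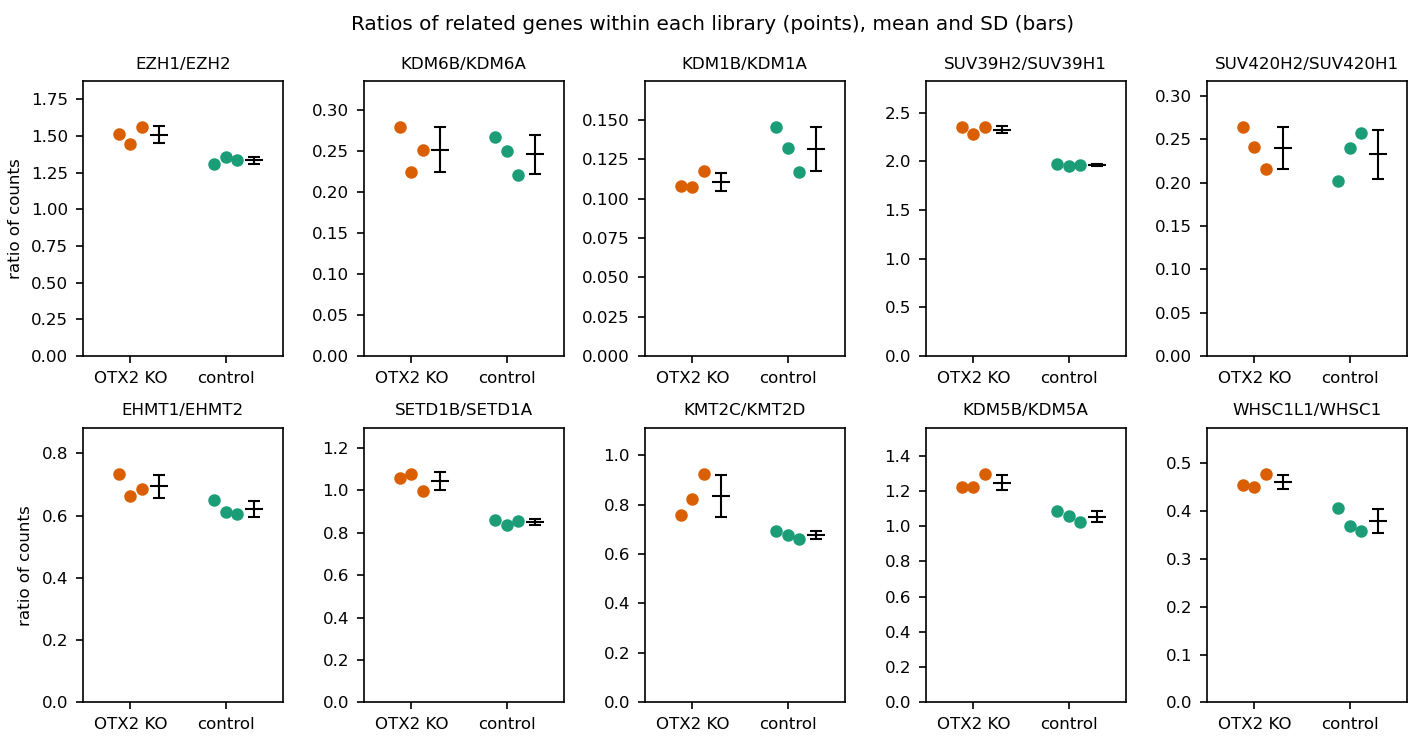
Ratio of the CPM of 2 related genes within each library (points, OTX2 knockout left, control right), with the mean and SD of 3 libraries. In 7 of the 10 panels all knockout points lie above all control points.

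The partners of these enzymes were counted from lists of complex subunits, to be read against 21.2% of all tested genes that rose and 18.5% that fell, and 20.2% and 26.2% of those at or above the lowest member count. Of 13 core subunits of the H3K4 methyltransferase complexes, 6 fell (46.2%) and 0 rose (median log2 fold change -0.11). At an unadjusted p under 0.05 edgeR gave 0 higher, and DESeq2 at the adjusted threshold 0. PSIP1, which tethers the KMT2A complex to chromatin, fell by 0.25 on the log2 scale, ASH2L and WDR5, both core subunits, by 0.31 and 0.18, and BOD1 by 0.19. Exons of PSIP1 overlap SNAPC3. With library totals alone 2 of the 13 fell. Of 8 PRC2 accessory subunits tested, 4 fell (50%) and 0 rose (median -0.15), with 0 higher by edgeR at an unadjusted p under 0.05 and 0 by DESeq2. LCORL fell by 0.54, LCOR by 0.24, PHF1 by 0.19 and PHF19 by 0.15, and exons of LCORL and PHF1 overlap the more abundant NCAPG and CUTA. With library totals alone 2 fell and 1 rose, and without control replicate 2 2 fell.

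Of 23 genes of Polycomb repressive complex 1, which ubiquitinates histone H2A, 7 fell (30.4%) and 2 rose (8.70%, median -0.05). PCGF3 rose by 0.29 on the log2 scale, and CBX6, a chromodomain subunit, fell by 0.26, SCML2 by 0.31 and the corepressor BCOR by 0.24. With library totals alone 4 rose, and 1 rose when control replicate 3 was left out. Of 13 H3K9 readers and partners, 2 rose (15.4%) and 3 fell (23.1%). CBX5 (HP1 alpha), which binds methylated H3K9, was at 651, 728 and 783 CPM in knockout and 1006, 957 and 886 CPM in control. It fell by 0.40 without overlap, TRIM28 fell by 0.17 and FAM208A (TASOR), a subunit of the HUSH silencing complex, by 0.15. MPHOSPH8, another subunit of that complex, rose by 0.23. Exons of FAM208A overlap CCDC66, so its count is uncertain. With library totals alone 5 rose and 1 fell, without control replicate 1 5 fell, and 1 rose without knockout replicate 1, knockout replicate 2, control replicate 2 or control replicate 3.

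Of 14 tested partners of KDM1A and CoREST, 6 rose (42.9%) and 1 fell (7.14%). INSM1, a neuroendocrine repressor that recruits KDM1A, was at 15.5, 18.9 and 18.04 CPM in knockout and 1.37, 1.17 and 0.807 CPM in control. It was present at about 1 CPM in control and rose by 3.96 on the log2 scale. RCOR2, a CoREST paralogue, rose by 0.43 and PHF21A, which reads unmethylated H3K4, by 0.25. HDAC2, the deacetylase that fell, named after its values were seen, was at -0.18. With library totals alone 7 rose and 0 fell, and after the GC and length correction 6 rose and 3 fell.

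Of 6 DOT1L partners, 1 rose (16.7%) and 2 fell (33.3%). NPM1, an abundant nucleolar protein, fell by 0.26 on the log2 scale and MLLT10, which binds DOT1L directly, by 0.22, and AFF4, a scaffold of the super elongation complex, rose by 0.17 with overlapping groups. AFF4 did not pass without knockout replicate 2, knockout replicate 3, control replicate 2 or control replicate 3, and 1 gene fell without knockout replicate 1, without knockout replicate 2 or with library totals alone. Of 18 proliferation genes, 6 fell (33.3%) and 0 rose (median -0.13), with 0 higher by edgeR at an unadjusted p under 0.05 and 0 by DESeq2. MCM7 fell by 0.20, TYMS by 0.32, PLK1 by 0.17 and MCM5 by 0.19. Exons of TYMS overlap C18orf56, which makes its count uncertain. EZH2 and SUV39H1 are known to be higher in dividing cells, and the part of proliferation in their fall was not tested. Without control replicate 1 11 proliferation genes fell, without knockout replicate 1 or control replicate 2 2, and with library totals alone 1.

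Larger changes were found in SET-domain and JmjC genes outside the set. Of 18 tested, 6 rose (33.3%) and 6 fell (33.3%). HR (hairless), a relative of the KDM3 enzymes, was at 60.3, 59.8 and 64.1 CPM in knockout and 25.8, 27.96 and 32.5 CPM in control. JMJD1C, also of the KDM3 family, was at 236, 239.5 and 264 CPM in knockout and 173, 152 and 154 CPM in control. The groups were far apart in both, with log2 fold changes of 1.10 for HR and 0.63 for JMJD1C, against -0.18 for KDM3A and -0.07 for KDM3B, which did not pass. PRDM8, a repressor of the developing nervous system, was at 4.71, 4.48 and 3.96 CPM in knockout and 0.433, 0.576 and 0.582 CPM in control. MINA, a ribosomal oxygenase with a JmjC domain, fell by 0.55 on the log2 scale, and its exons overlap CRYBG3.

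**Figure D5:**
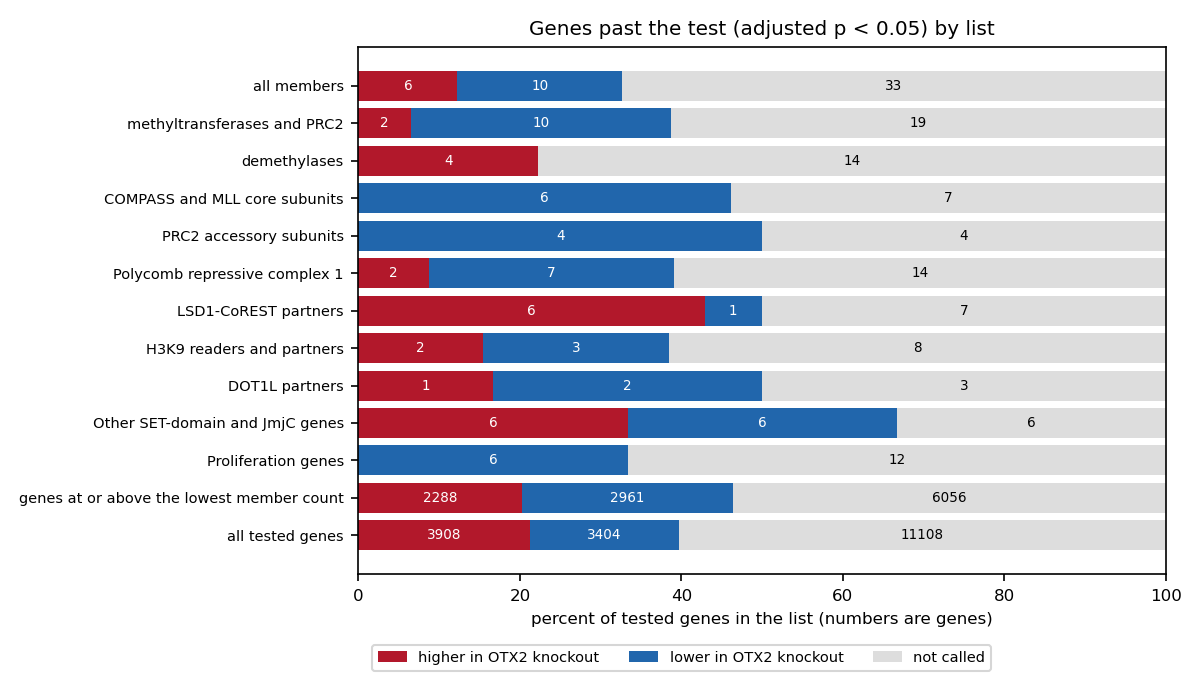
Percent of tested genes in each list that were higher (red), lower (blue) or not called (grey) in OTX2 knockout, with the number of genes in each segment. The bottom bars give the same for tested genes at or above the lowest member count and for all tested genes; the demethylases hold 4 higher and 0 lower, the methyltransferases with PRC2 2 higher and 10 lower.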

How the data were processed

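The authors deposited unnormalized counts per gene symbol, 1 column per library, matched here to samples by title. Per the submitters' processing notes, STAR and hg38 were used. The counting program, annotation, strand setting and filters are not stated, so reads from overlapping genes may be shared. PCR reads without identifiers of molecules are not independent.

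The counts were tested in R 4.3.3 with edgeR 4.0.16 (filterByExpr, TMM, glmQLFit, glmQLFTest), with Benjamini-Hochberg adjustment over 18420 genes at 0.05. CPM use TMM-scaled library sizes. Standard errors and 95% intervals are of the log2 fold change. Lengths and exon overlaps come from GENCODE 29 on GRCh38, promoters from RefSeq on GRCh38.p14. A count is called uncertain where exons overlap a gene with over 10% as many counts. Scripts were tested on simulated data.

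Members and lists were chosen with earlier results of these data known. The naming rule was every member, by library where the adjusted p was under 0.05, and up to 4 genes with the smallest adjusted p per list of partners; some genes that it names are not reported here. Further values by library, the promoters shown, the comparison with genes at or above the lowest member count and the 1.25-fold limit were chosen after seeing the data, as were the CCAAT and E2F letters, searched after TAATCC and CACGTG. Alternatives were 3 other scalings, 2 other filters, DESeq2 1.42.0, limma-voom (limma 3.58.1), removal of mitochondrial and ribosomal RNA genes, a GC and length correction with splines of 5 degrees of freedom, a test against 1.5-fold, a threshold of 0.01, and leaving out each library.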

Additional observations from a re-analysis of the deposited data

How the results depend on the processing

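With library totals alone 15 members were higher and 6 lower, in place of 6 and 10, and 2034 of all genes were lower in place of 3404; that scaling moved the median log2 fold change of all genes to 0.08, and 71.9% of called genes were higher in place of 53.4%. The GC and length correction, which left 15562 genes, gave 5 and 20 members; it was centred within each library after a first form, which shifted the median of all genes and gave more lower members, had been seen. Against a 1.5-fold change 0 members were higher and 0 lower, with 1050 and 157 of all genes; at a threshold of 0.01, 2 members were higher and 8 lower. Leaving out 1 library gave 3 to 12 higher and 8 to 12 lower members, and 3267 to 3861 higher and 2630 to 3653 lower genes overall: 12 members were higher without control replicate 1, and 3 without knockout replicate 2 or control replicate 2. For the shifts under scaling, correction and single libraries the cause was not tested. Over 17 alternatives, 0 members turned round with a call, 8 of 16 calls were lost in some alternative other than the 1.5-fold test, and 21 of 33 other members passed in some alternative. Leaving out each library in turn moved the knockout over control contrast of each of the 10 paralogue ratios by less than its spread between libraries. With 3 libraries per group the shift stays below that spread for practically any values, so this does not show how stable the ratios are. Per kilobase the ratios themselves change, and their knockout over control contrast is the same by construction. No paired analysis was possible because the replicate numbers were given in accession order and pair nothing. The 3 libraries per group limit what small changes can be resolved.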
